A study of Homo sapiens with 8 samples.

Results

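The genes described here are 10 receptor tyrosine kinase genes, ROS1, RET, ALK, ERBB3, ERBB4, KDR, NTRK2, NTRK3, PDGFRB and KIT. Measurements came from the peaks that share at least 1 base with the GRCh38 span of a gene, 230 peaks of 31395 in the series. The 10 genes were picked because their counts in the HOS library labelled sgNAT10 exceeded those in the other 3 libraries. The difference between that library and the others is therefore given as a description, without a test.

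The peaks come from immunoprecipitation, with an antibody against N4-acetylcytidine (ac4C), of RNA from 143B and HOS cells. Both are established human osteosarcoma lines, and 143B is a transformed derivative of HOS. ac4C is a modified base that the acetyltransferase NAT10 writes into RNA. Each line was studied as NC, the control, and as sgNAT10, carrying a guide RNA against NAT10, and poly(A)-selected, fragmented RNA was used in every group. The number of clones behind a line is not given in the sources used here. Each of the 4 groups has 1 library, so no group has replicates and every interval below is a 95% interval for counting error only. Input libraries were not analysed here, so RNA level and enrichment by the antibody cannot be told apart. In bulk RNA, fewer cells of a type and less RNA per cell cannot be told apart either.

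Receptor tyrosine kinases are membrane proteins that bind a growth factor outside the cell, pair with a second receptor and phosphorylate tyrosines inside it, which starts the RAS-MAPK and PI3K-AKT cascades. Many are expressed in a narrow range of tissues, such as RET, ALK, NTRK2 and NTRK3 in the nervous system and KDR in blood vessel endothelium. ALK, ROS1, RET, NTRK2 and NTRK3 also form fusion oncogenes in several tumours, in which the kinase part is joined to another protein, and KIT and PDGFRB are activated by mutation or rearrangement.

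Totals over all peaks ranged from 20107718 to 24785306 counts, which is not sequencing depth because the tables cover peaks only. Values in CPM below are counts scaled to the library total with a TMM factor over all peaks. The 143B library labelled sgNAT10 stood apart, with Spearman correlations across peaks of 0.583 to 0.718 to the other libraries, against 0.803 to 0.865 among the others. NAT10 itself had 1 peak. It held 180 counts in the HOS control and 63 in HOS sgNAT10, a difference of -1.84 in log2 CPM. In 143B NC it held 65 and in the 143B library labelled sgNAT10 130, a difference of 0.245, so it was not lower there. Counts at 1 peak without the input cannot show whether the gene was edited, so that label was not tested. Of 10 osteosarcoma and mesenchymal marker genes, 5 had a peak, led by VIM with 6923 to 21284 counts, and COL1A1, COL1A2, SPP1, BGLAP and IBSP had none.

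A promoter sequence is shown for KIT, the receptor of stem cell factor, because KIT had the only peak that clearly covered a promoter of these genes. RefSeq promoter windows (GRCh38.p14), from 250 bases before to 50 after a transcript start, were given for 9 of the 10 genes, 14 windows in all. The KIT peak at 54657764 to 54658138 on chromosome 4 covered 193 of the 250 bases before the KIT start, which are in capitals here (whether the tables count starts from 0 or 1 is not stated, so the first capital may be off by 1 base).

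KIT promoter, chr4:54657707-54657956, plus strand: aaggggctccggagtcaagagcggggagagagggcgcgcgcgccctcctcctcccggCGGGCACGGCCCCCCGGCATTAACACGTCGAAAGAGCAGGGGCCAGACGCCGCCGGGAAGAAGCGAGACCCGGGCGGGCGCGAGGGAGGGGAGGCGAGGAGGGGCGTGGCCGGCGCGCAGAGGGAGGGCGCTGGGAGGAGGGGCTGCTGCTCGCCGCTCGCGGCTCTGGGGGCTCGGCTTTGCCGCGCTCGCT

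The full KIT window is 74.3% G and C, where the median of all 35116 windows was 58.7%. It holds the GC box GGGCGG once on the plus strand and not on the minus strand (CCGCCC), a motif found on either strand in 45.0% of all windows. The peak over this promoter had 28 counts in 143B NC, 28 in the 143B library labelled sgNAT10, 26 in the HOS control and 55 in HOS sgNAT10. The other 3 libraries were thus alike in raw counts at this peak, but had 1.51, 0.896 and 1.45 CPM in the same order. HOS sgNAT10 was 0.67 above the highest of them on the log2 scale. At the other 12 KIT peaks that difference was 1.11 to 3.61. A downstream ALK window (29223774 to 29224073 on chromosome 2) met the end of a peak at a shared base 29223774, an overlap that depends on how the tables count positions. The nearest peaks to the other windows lay 154 bp (ERBB4) to 18639 bp (PDGFRB) away.

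NTRK3 had 49 peaks, more than any other protein-coding gene in the series. Among the 10 genes it was followed by ALK with 33, ERBB4 with 26 and ROS1 with 21. RET and PDGFRB had 19 each, KDR 18, ERBB3 17, NTRK2 15 and KIT 13. Across the 6858 protein-coding genes whose mean count reached 10, called measured below, the median was 1 peak, and 1.40% of them had 13 or more. The 230 peaks had a median width of 179 bp (98 to 911 bp), against 135 bp for all peaks. The median gap between neighbouring peaks of a gene was 2190.5 bp, and ranged from 113 to 261661 bp. In the 172 measured protein-coding genes outside the 10 that also had 10 or more peaks, the median width was 168 bp and the median gap 5935 bp.

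Spacing differed between the genes. ERBB3, with the shortest span (chromosome 12, 56080108 to 56103505), had peaks over 16.1% of its span at a median gap of 625 bp, and PDGFRB (chromosome 5, 150113839 to 150155845) over 10.7% at 789 bp. ERBB4, with the longest span (chromosome 2, 211375717 to 212538802), had peaks over 0.368% of its span at a median gap of 23854 bp. ALK (chromosome 2, 29192774 to 29921586, minus strand) had 18 of its 33 peaks in the 8.03% of its span nearest the transcript end. These 18 held 1107 of the 2088 ALK counts in HOS sgNAT10, but 35 of 246 in 143B NC, 41 of 222 in the 143B library labelled sgNAT10 and 48 of 185 in HOS NC. NTRK3 (chromosome 15, 87859751 to 88256739, minus strand) had 35 of its 49 peaks in a block of 92.9 kb (87940167 to 88033042) at a median gap of 1705 bp, followed by 93168 bp without a peak. RET and ROS1 had no peak in the first 18.3 kb and 16.3 kb of their transcribed spans, and PDGFRB none in the first 18.7 kb. The remaining spans were 117287353 to 117425942 on chromosome 6 for ROS1, 43077069 to 43130351 on chromosome 10 for RET and 84668522 to 85027054 on chromosome 9 for NTRK2. KIT (54657957 to 54740715) and KDR (55078481 to 55125595) are near each other on chromosome 4. The gene table used here has no exons, so peaks were not assigned to exons or introns.

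**Figure D1:**
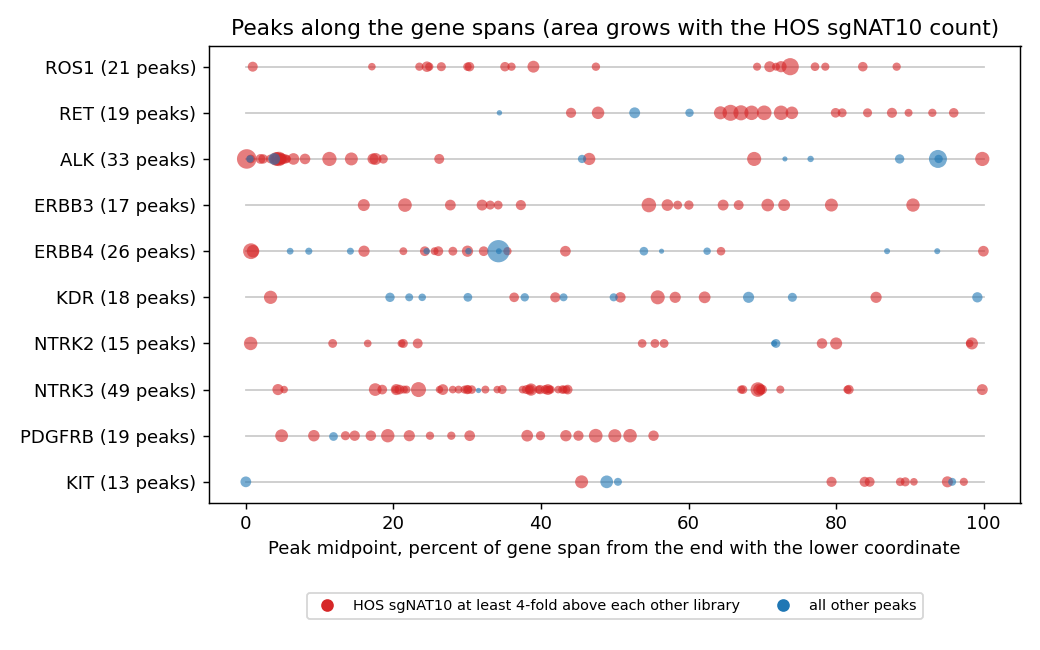
Peak midpoints along the span of each gene, as a percentage of the span from its end with the lower coordinate. Each point is a peak, its area grows with the raw count in HOS sgNAT10, and red points are the 189 of 230 peaks with a scaled value at least 4-fold above each other library. ALK peaks crowd at the left end, NTRK3 peaks in a block, and most blue points belong to ERBB4, KDR and ALK.

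In HOS sgNAT10 the 230 peaks together held 11380 counts, against 908 in 143B NC, 1319 in the 143B library labelled sgNAT10 and 643 in HOS NC. These were 0.0539% of the counts of HOS sgNAT10 and 0.00259% to 0.00590% of those of the others. Whether part of these counts came from material other than RNA of that line, such as another sequencing library, was not tested, and this bears on every HOS sgNAT10 value here. On the CPM scale the level was 502 in HOS sgNAT10, 48.9 in 143B NC, 42.2 in the 143B library labelled sgNAT10 and 35.9 in HOS NC. The sum was 10.3-fold above that of the next library, 143B NC, or 3.36 (3.26 to 3.46) on the log2 scale, and 14.0-fold above HOS NC (3.81, 3.69 to 3.92). All 10 genes were highest in HOS sgNAT10, and 9 exceeded each other library by at least 4-fold. Over all 6858 measured protein-coding genes, 1.60% did so (5.03% at 2-fold, which all 10 genes passed), and the median difference from the highest other library was -0.52 against 3.11 for the 10 genes. All 10 were also at least 4-fold above HOS NC (median 4.22, against -0.12 for all measured genes), against 3.67% of measured genes, while 0.948% lay at least 4-fold below it. The rule chose the genes on this difference, so nothing follows from these shares, and all but ROS1 would reach a mean count of 10 from the other 3 libraries alone.

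**Figure D2:**
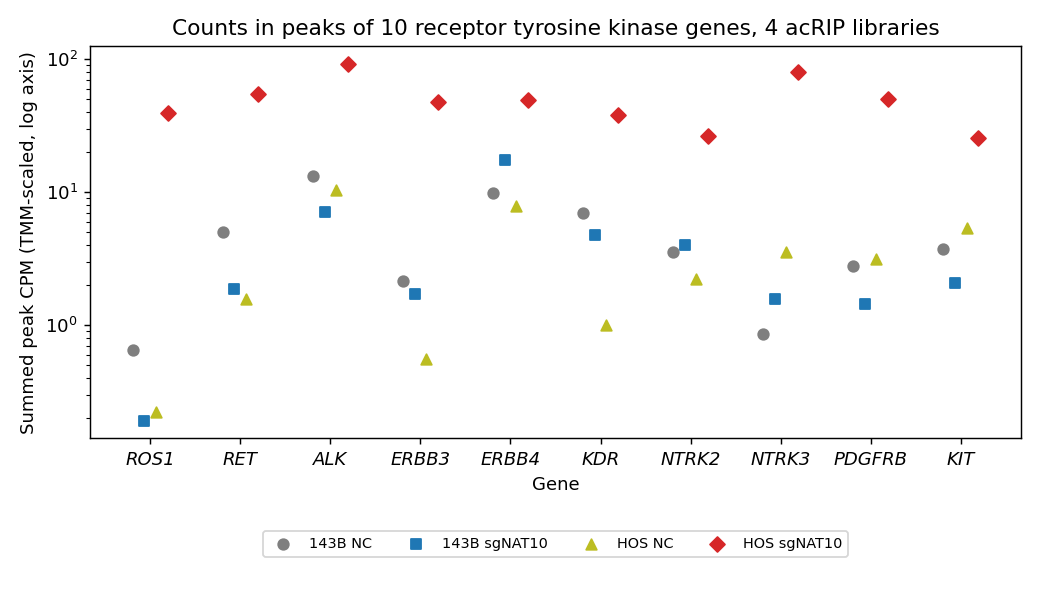
Summed peak counts in CPM (TMM-scaled, log axis) of each gene in the 4 acRIP libraries, 1 point per library. The red diamonds (HOS sgNAT10) lie between 25.5 and 92.2 CPM for every gene, while the other libraries spread from 0.192 to 17.5.

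Among the receptors of neurons and the neural crest, NTRK3, the receptor of neurotrophin-3, had 16 counts in 143B NC, 49 in the 143B library labelled sgNAT10, 64 in the HOS control and 1818 in HOS sgNAT10. Its log2 difference from the highest other library, HOS NC, was 4.47 (4.13 to 4.87). At 48 of its 49 peaks HOS sgNAT10 was at least 4-fold above each other library, and 14 peaks held 0 counts in all the others. NTRK2, the receptor of brain-derived neurotrophic factor, had 66, 125, 40 and 597 counts in the same order, a difference of 2.71 (2.44 to 3.01) that was 2.02 with upper quartile factors. Its peak at 84926047 to 84926235 on chromosome 9 had 47, 54, 20 and 32 counts, so it did not share the pattern of the rest of the gene.

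RET, which binds ligands of the GDNF family together with a co-receptor, had 93 counts in 143B NC, 58 in the 143B library labelled sgNAT10, 28 in the HOS control and 1234 in HOS sgNAT10. The difference was 3.43 (3.14 to 3.76) from 143B NC, the highest other library, and 5.09 (4.59 to 5.72) from HOS NC. Its peak with the most counts, at 43111833 to 43112311 on chromosome 10, had 12, 3, 1 and 142. ALK, a receptor of the developing nervous system, had 246, 222, 185 and 2088 counts, a difference of 2.79 (2.61 to 3.0). ALK combined peaks of 2 kinds: its peak at 29193208 to 29193998 had 3, 13, 4 and 218 counts, while that at 29838577 to 29838685 had 51, 37, 32 and 38. At 8 of the 33 ALK peaks HOS sgNAT10 was not 4-fold above each other library, and those 8 held 205 of the 246 ALK counts in 143B NC.

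ROS1, a receptor with roles in epithelial tissues, was lowest outside HOS sgNAT10, with 12 counts in 143B NC, 6 in the 143B library labelled sgNAT10, 4 in the HOS control and 883 in HOS sgNAT10. The difference from 143B NC was 5.82 (5.10 to 6.87), the largest of the 10 genes on this measure, but with the widest interval. All of its 21 peaks were at least 4-fold above each other library, and 12 held 0 counts in all the others. Its peak with the most counts, at 117389327 to 117389896 on chromosome 6, had 0, 2, 0 and 165, at least 43.5-fold above HOS NC with a floor of 3 counts in that library.

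Of the 2 receptors of the ERBB family, which bind neuregulins, ERBB3 has a weak kinase and signals through its partners. ERBB3 had 40 counts in 143B NC, 54 in the 143B library labelled sgNAT10, 10 in the HOS control and 1078 in HOS sgNAT10, a difference of 4.44 (4.01 to 4.96), and all of its 17 peaks were at least 4-fold above each other library. ERBB4 had 184, 546, 142 and 1122 counts and was the gene below 4-fold, with a difference of 1.5 (1.36 to 1.65) from the 143B library labelled sgNAT10 and 0.81 with upper quartile factors. A peak at 211773866 to 211774036 had 94, 331, 103 and 289 counts and so held 60.6% of the ERBB4 counts in the 143B library labelled sgNAT10. Without the highest peak of each gene, chosen by its HOS sgNAT10 count, ERBB4 had a difference of 2.41. Against 143B NC alone it was 2.32 and against HOS NC alone 2.64.

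KDR, PDGFRB and KIT carry a kinase domain split by an insert. PDGFRB, the receptor of PDGF-B in pericytes and other mesenchymal cells, had 52 counts in 143B NC, 45 in the 143B library labelled sgNAT10, 56 in the HOS control and 1127 in HOS sgNAT10, a difference of 3.97 (3.61 to 4.41). The 3 lower libraries were within 11 raw counts of each other, but had 2.80, 1.44 and 3.12 CPM in the same order. At 18 of 19 peaks HOS sgNAT10 was at least 4-fold above each of them. KDR, the main VEGF receptor of endothelium, had 130, 149, 18 and 855 counts, a difference of 2.42 (2.16 to 2.71) from 143B NC and 5.17 (4.56 to 5.99) from HOS NC. KDR was thus higher in both 143B libraries than in HOS NC, and 8 of 18 peaks passed 4-fold against each other library. KIT had 69, 65, 96 and 578 counts, a difference of 2.24 (1.94 to 2.58) from HOS NC, and 9 of 13 peaks passed.

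Peak by peak, HOS sgNAT10 had the highest scaled value at 214 of 230 peaks and was at least 4-fold above each other library at 189 (82.2%), against 3.80% of all peaks and 4.54% of peaks in protein-coding genes. The peaks nearest the 4-fold line were 29197529 to 29197671 in ALK, with 2, 2, 5 and 30 counts (2.08 on the log2 scale), and 55110414 to 55110755 in KDR, with 12, 7, 2 and 60 (1.96). At the 189 peaks the count was 18 to 218 in HOS sgNAT10 (median 43) and at most 14 in any other library. At 33 of the 230 the other 3 libraries all held 0 counts, 14 in NTRK3, 12 in ROS1, 5 in ALK and 2 in ERBB4. The remaining 41 peaks held 12.8% of the counts of HOS sgNAT10 and 60.0% to 71.0% of those of the other libraries. So most of the counts of the other libraries lay in peaks that were not 4-fold higher in HOS sgNAT10. At 16 peaks another library led, the 143B library labelled sgNAT10 at 12 and 143B NC at 4, with 8 of the 16 in ERBB4, 4 in ALK, 2 in NTRK2 and 1 each in NTRK3 and RET. In the whole series 1193 peaks were at least 4-fold higher in HOS sgNAT10 than in each other library, and 15.8% of them were in these 10 genes.

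Summed per gene, counts per length were nearly even across the 10 genes in HOS sgNAT10 and uneven elsewhere. Single peaks were less even, and those of ERBB4 ran from 0 to 170 counts per 100 bp in HOS sgNAT10. Over the summed peak width, HOS sgNAT10 had between 19.4 counts per 100 bp (KIT) and 28.7 (ERBB3). The range was 0.188 (NTRK3) to 4.30 (ERBB4) in 143B NC, 0.147 (ROS1) to 12.8 (ERBB4) in the 143B library labelled sgNAT10 and 0.0979 (ROS1) to 3.32 (ERBB4) in HOS NC. The lowest of these values rest on 16, 6 and 4 counts in the same order. A single peak held 51.1%, 60.6% and 72.5% of the ERBB4 counts behind the highest. Across the 230 peaks the Spearman correlation of width and count was 0.855 in HOS sgNAT10, 0.215 in 143B NC, 0.0965 in the 143B library labelled sgNAT10 and 0.147 in HOS NC. The median count per peak was 39 in HOS sgNAT10, for which the genes were chosen, and 1 to 2 in the others, whose values rest on few counts. The correlation was not computed for peaks of other genes, so it is not shown to be particular to these. The peaks of a library share its depth, and the libraries in which peaks were called are not given in the sources used here. The 1004 peaks at least 4-fold higher in HOS sgNAT10 outside the 10 genes had a median of 31.7 counts per 100 bp (quartiles 21.2 and 56.7), against 22.2 (18.3 and 27.6) for the 189 inside them.

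**Figure D3:**
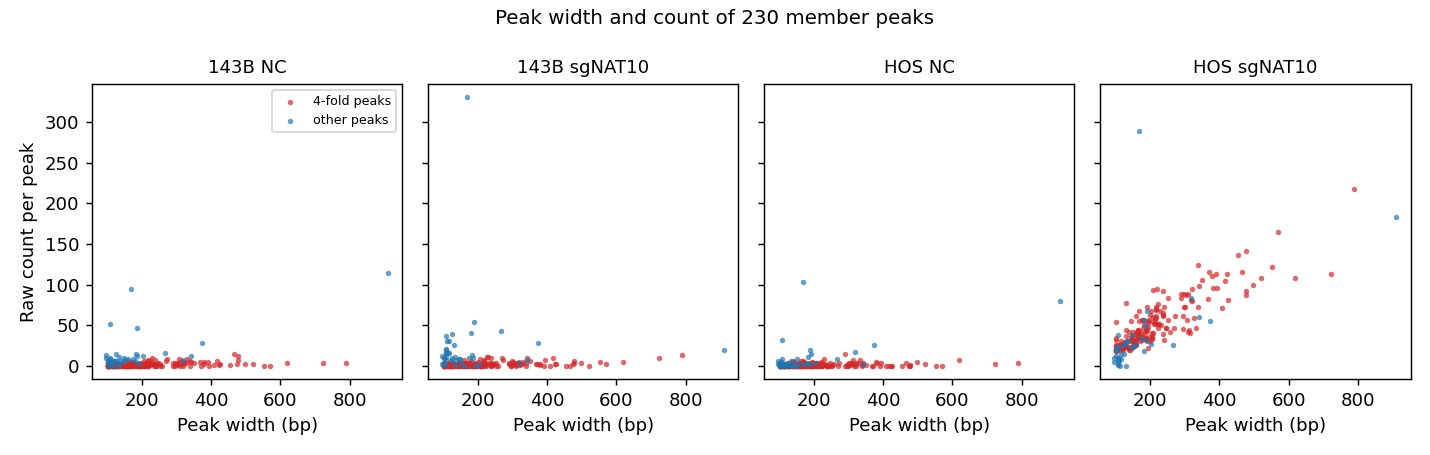
Raw count against peak width in bp for the 230 peaks, 1 panel per library, with the 189 peaks at least 4-fold above each other library in HOS sgNAT10 in red and the other 41 in blue. Counts climb with width in the HOS sgNAT10 panel (Spearman 0.855), and the red points lie at or below 14 counts in the others.

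In the other libraries neighbouring peaks of a gene often held the same count. This was so for 98 of 220 neighbouring pairs (44.5%) in 143B NC, 72 (32.7%) in the 143B library labelled sgNAT10 and 96 (43.6%) in HOS NC, against 5 (2.27%) in HOS sgNAT10, where counts were higher. Many equal pairs were of 0 counts, but not all. In KDR 11 peaks in a row, from 55089690 to 55107888 on chromosome 4, held exactly 6 counts each in 143B NC although their widths differed, and in PDGFRB 15 of 19 peaks held exactly 2. RET had 8 peaks in a row with 2 counts in the same library. In NTRK3, 15 of the 17 peaks between 88008588 and 88033042 held exactly 2 counts in HOS NC. Peaks of a gene may therefore not be separate measurements in these libraries, and the intervals on sums treat their counts as separate. How reads were assigned to peaks is not given in the sources used here.

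Peaks beside the genes were also read. Within 100 kb to either side of the 10 spans lay 28 further peaks, and 1 of them was at least 4-fold higher in HOS sgNAT10 than in each other library, beside ERBB4. Of all peaks 3.80% were so, which makes this count near the background and no result about the flanks. Around ERBB3, 7 flanking peaks had 5472 counts in 143B NC, 9036 in the 143B library labelled sgNAT10, 8449 in the HOS control and 8366 in HOS sgNAT10. Counts in those flanks were thus alike in both HOS libraries, while ERBB3 itself had 10 and 1078.

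Between the 143B libraries the genes differed less, and not all in the same direction. The sum over the 230 peaks was lower in the library labelled sgNAT10 by TMM, at -0.21 (-0.34 to -0.09) on the log2 scale, but turned to 0.21 with upper quartile factors, 0.38 with library totals alone and 0.041 with TMM on filtered peaks. Relative to 143B NC, 7 genes were lower and 3 higher, with a median of -0.69 against -0.06 for all measured genes. The split was 6 and 4 with upper quartile factors, where ERBB3 moved from -0.31 to 0.10, and 5 and 5 with library totals alone, where ERBB3 was at 0.27 and KDR at 0.043. ROS1 (-1.55, -3.45 to -0.23) and RET (-1.41, -1.93 to -0.94) were at least 2-fold lower, as were 24.1% of measured genes, and no gene was 2-fold higher, against 15.0%. RET missed 2-fold with library totals alone (-0.82) and, narrowly, with upper quartile factors, while ERBB4 and NTRK3 passed 2-fold upward under both (1.41 and 1.41 with totals) and with TMM on filtered peaks. ERBB4 was at 0.81 (0.57 to 1.07) and NTRK3 at 0.83 (0.02 to 1.78). Much of the NTRK3 difference lay in a peak at 87984687 to 87984795 with 2 counts in 143B NC and 21 in the library labelled sgNAT10, and NTRK3 was at -0.083 over peaks with a mean count of at least 10, which leave it out. The NAT10 peak was not lower in the library labelled sgNAT10 than in 143B NC, so no direction is drawn from that label.

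Between the control libraries, HOS NC was lower than 143B NC over the 230 peaks, at -0.45 (-0.59 to -0.30). KDR was at -2.75 (-3.60 to -2.08), ERBB3 at -1.87 (-3.11 to -0.92), RET at -1.65 (-2.35 to -1.06) and ROS1 at -1.37 (-3.62 to 0.19), the 4 genes at least 2-fold lower, against 10.5% of measured genes. NTRK3 was at 2.0 (1.24 to 2.94), the only gene at least 2-fold higher, against 19.3% of measured genes. The runs of equal counts in KDR and NTRK3 given above are part of both values.

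**Figure D4:**
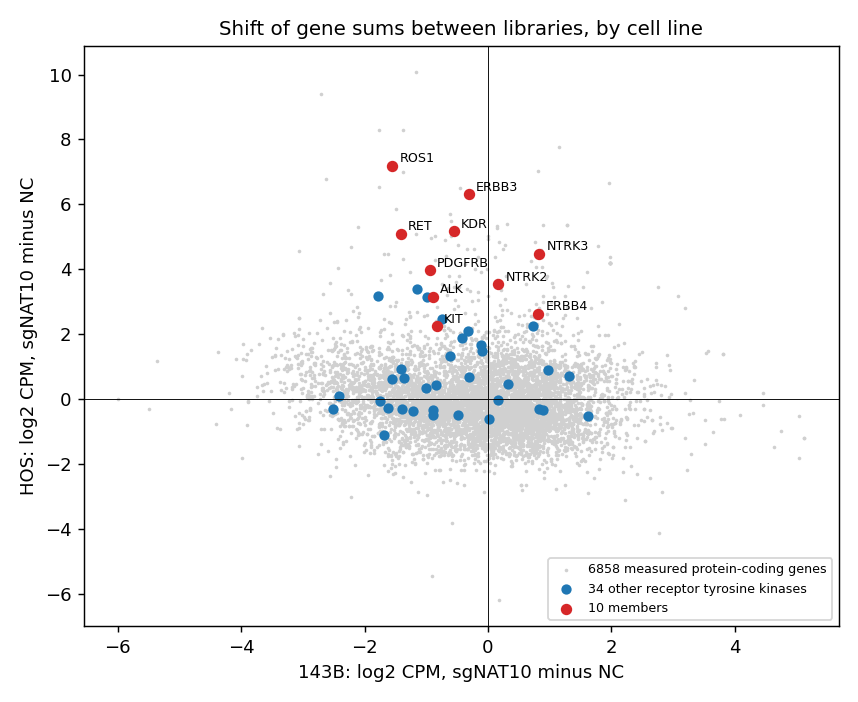
Shift of gene sums between libraries (log2 CPM; sgNAT10 minus NC) in 143B on the horizontal and in HOS on the vertical axis, for 6858 measured protein-coding genes (grey), 34 other receptor tyrosine kinase genes (blue) and the 10 genes (red). The red points lie between 2.24 and 7.19 on the vertical axis and between -1.55 and 0.83 on the horizontal axis.

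Of the 48 other receptor tyrosine kinase genes, 35 had a peak and 34 a mean count of at least 10. Of these, 5 were at least 4-fold above each other library in HOS sgNAT10 (14.7%, against 1.60% of all measured genes). Against HOS NC, 6 were 4-fold above (MUSK in addition, from 16 counts) and none was 4-fold below. The shares of all measured genes were 3.67% above and 0.948% below. The median difference from HOS NC was 0.44 against -0.12 for all measured genes. FGFR2, a receptor of fibroblast growth factors, had 106 counts in 143B NC, 106 in the 143B library labelled sgNAT10, 142 in the HOS control and 1009 in HOS sgNAT10, a log2 difference from HOS NC of 2.48 (2.24 to 2.76). FLT3, of blood progenitors, lay at 3.18, FLT4, of lymphatic endothelium, at 2.11 and INSRR at 3.40, the last from 63 counts in HOS sgNAT10 and 4 in HOS NC. INSRR had 1 count in 143B NC and 0 in the 143B library labelled sgNAT10, so it reached a mean of 10 only through HOS sgNAT10. The list was chosen with earlier results of these data known, so nothing follows from the 14.7%. FLT3, FGFR2 and FLT4 had 11 to 18 peaks each. The 4 other family members with the most counts in HOS NC, named after their values were seen, did not share the pattern. EPHA2 had 2548 counts in HOS NC and 2631 in HOS sgNAT10 (-0.29), EGFR 1758 and 2382 (0.10), AXL 1450 and 1410 (-0.38) and PDGFRA 708 and 1131 (0.34). A given gain in counts makes a smaller fold where HOS NC counts are high, so this choice of genes favoured small differences.

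Genes that act with the receptors were read from lists. Of 9 measured ligands and co-receptors, 17 downstream signalling proteins and 12 negative regulators, none was 4-fold above or below HOS NC in HOS sgNAT10, and their medians were 0.41, -0.18 and -0.39. Of all measured genes 3.67% were 4-fold above and 0.948% below, so these counts are near the background and are no result about the lists. The RET co-receptor gene GFRA1, with 0 counts in HOS NC and 16 in HOS sgNAT10, fell under the mean count of 10. The ligand gene VEGFA, whose product binds KDR, was at 1.03, the neuregulin gene NRG1 at -1.0 and the kinase gene BRAF at 1.71, 3 examples chosen after their values were seen. Of 32 measured other genes altered in solid tumours, 4 (12.5%, against 1.60% of all measured genes) were at least 4-fold above each other library: PAX8 and TMPRSS2 (4.73 and 5.86 above HOS NC), CDKN2A (4.89) and SLC34A2, named after its values were seen, with 32 counts in HOS sgNAT10 and 0 in HOS NC. SLC34A2 had 5 counts in 143B NC and 4 in the 143B library labelled sgNAT10, so it reached the mean count of 10 only through HOS sgNAT10. The list was chosen with earlier results of these data known, so nothing follows from its share. MYB passed 4-fold against HOS NC alone (2.20).

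Marker genes of other cell types were checked beside this result. Of 7 epithelial markers 3 had a peak, and their summed level was 68.8 CPM in 143B NC, 80.4 in the 143B library labelled sgNAT10, 122 in the HOS control and 110 in HOS sgNAT10. Within the list, CDH1, which encodes E-cadherin, went from 5 counts in HOS NC to 812 in HOS sgNAT10 over 15 peaks (6.80 on the log2 scale), while KRT8 and KRT18 were at -0.89 and -0.65, and EPCAM, KRT19, CLDN4 and ESRP1 had no peak. Of 6 endothelial markers PECAM1, CDH5, CLDN5 and EMCN had no peak, and the list summed to 2.37 CPM in 143B NC, 3.20 in the 143B library labelled sgNAT10, 1.73 in the HOS control and 3.18 in HOS sgNAT10. VWF had 29 and 51 counts in the HOS libraries, and ERG 2 and 21. Of 6 blood cell markers CD3E, LYZ, HBB and CD79A had no peak, and the list summed to 54.0 and 102 CPM, nearly all from CD68 (965 and 2314 counts). Of 8 neural and melanocyte markers 2 had a peak, SOX10, MITF, PMEL, SYP and GFAP had none, and the list summed to 2.40 and 3.0 CPM. Genes without a peak have no value here. The part of other cells in the result was not tested.

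The 10 genes outside the set with the most similar profile were chosen by the Euclidean distance of centred log2 CPM over the 4 libraries from the mean of the 10 receptor genes, among 1805 genes with at least 200 counts in HOS sgNAT10. They were NEDD9, at a distance of 0.311, then CDKN2A (0.445), TATDN3 (0.682), EXD3 (0.724), TRHDE (0.842), RGS9 (0.855), PCCA (0.988), GSDME (0.993), GRM7 (1.02) and DNM3 (1.02). The receptor genes themselves lay at 0.858 (RET) to 2.45 (ROS1). NEDD9, which encodes a scaffold protein of focal adhesions, had 36 counts in 143B NC, 54 in the 143B library labelled sgNAT10, 21 in the HOS control and 573 in HOS sgNAT10. DNM3 had 84, 240, 92 and 3345. These genes had 1 (TATDN3 and GSDME) to 6 (DNM3) peaks each, against 13 (KIT) to 49 (NTRK3) in the receptor genes, so they did not share the large number of peaks. The measure rests on 4 libraries only. Its minimum of 200 counts was set in HOS sgNAT10, the library in which the receptor genes were chosen to be high.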

How the data were processed

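The members and gene lists were chosen with earlier results of these data known. The authors deposited raw read counts of 31395 peak intervals, the same in the tables of both lines; per the submitters' processing notes, GRCh38, FastQC, STAR, SAMtools and deepTools were used. The peak caller, counting tool, versions and strand setting are not given in the sources used here. Columns name line and genotype, and were taken as acRIP from the table names. Inputs were not analysed here. The 143B table also holds 7 blank columns.

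Peaks were matched to gene spans of the RefSeq table (GRCh38.p14) by at least 1 shared base and summed per gene; 4 of 230 overlap a second annotated gene (2 in ALK, 2 in NTRK3). Counts were scaled with TMM factors (edgeR 4.0.16, factors 0.723 to 1.40); log2 CPM used a prior count of 1, and genes with a mean count of at least 10 counted as measured. Intervals are exact conditional binomial (95%) and cover counting error only, as reads lacking molecular identifiers can be PCR copies. No statistical test was made, since each group has 1 library and the genes were chosen on these values. The scripts for fold calls and intervals were checked on simulated counts. Named genes are the 10 members with their highest peaks, list genes at least 4-fold from HOS NC with at least 50 counts, and the 10 most similar genes; others are said to be chosen after. Some list genes are not reported here. Alternatives were DESeq2-type size factors (1.42.0), upper quartile factors, library totals, a prior count of 5, other peak sets and each comparison library alone.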

Additional observations from a re-analysis of the deposited data

Results flagged for a closer look

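For 7 of the 10 genes the libraries labelled sgNAT10 and NC differed in opposite directions in the lines, lower in 143B and higher in HOS. The HOS shift less the 143B shift, in log2 CPM, was 8.74 for ROS1, 6.62 for ERBB3, 6.50 for RET, 5.72 for KDR, 4.91 for PDGFRB, 4.05 for ALK and 3.07 for KIT. With 1 library per line and genotype the difference between lines was not tested, and the genes were chosen on the HOS value. In 143B the median of all measured genes was also below 0 (-0.06). The share of all measured genes with opposite directions was not computed, so nothing follows from how many of these genes had them. The NAT10 peak was not lower in the 143B library labelled sgNAT10 than in 143B NC. The 143B interval of ERBB3 included 0, and the 143B direction turned for ERBB3 with upper quartile factors (0.10) and for ERBB3 (0.27) and KDR (0.043) with library totals alone, which leaves 5 genes with opposite directions under every scaling tried.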

How the results depend on the processing

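The sum over the 230 peaks stayed higher in HOS sgNAT10 under every alternative tried. The genes were chosen for that difference, so its unchanged sign is no support for it, and the alternatives describe its size only. The log2 difference of the sum from the highest other library was 3.19 with library totals alone and 2.88 with upper quartile factors. It was 3.57 against the 143B library labelled sgNAT10 alone and 3.81 against HOS NC alone. In 143B the sum turned from -0.21 to 0.21 with upper quartile factors, 0.38 with library totals alone and 0.041 with TMM on peaks kept by filterByExpr (added after the data were seen), and was -0.48 without the highest peak of each gene (also added after). KDR turned to 0.043 in 143B with library totals alone, and NTRK3 to -0.083 when only peaks averaging 10 counts were summed, which also took NTRK2 from 0.17 to -0.059. ERBB3 turned from -0.31 to 0.10 with upper quartile factors and 0.27 with totals, and RET moved from -1.41 to -0.82 with totals. HOS NC against 143B NC was -0.22 with DESeq2-type size factors and -0.80 with library totals alone, where PDGFRB turned from 0.16 to -0.19. The number of genes at least 4-fold above each other library was 9 under each scaling, 10 at 2-fold and 5 at 8-fold. Of all measured genes 0.831% passed 8-fold, but nothing follows from these numbers, as the genes were chosen on that difference. Requiring an average of 10 counts left 139 of 230 peaks. That average includes HOS sgNAT10, and some peaks reached it only through that library. For single genes, 81 of 110 alternative values of the HOS comparison lay within the counting interval of the reported value and 29 moved beyond it, none with a changed sign. These values include comparisons with each other library alone. For each gene, the comparison with the highest other library repeats the reported value. The remaining single-library comparisons could only be larger, so their sign could not change. No paired analysis was possible because each group has 1 library and the labels give no replicate numbers. Counts of 0 to 3 in most peaks of the other libraries limit every ratio at a single peak.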
